A study of Mus musculus with 8 samples.

Results

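In AMPKα2 knockout (KO) muscle, most 3′ end reads of 8 genes lay on scaffold copies of the genes. In the wild type (WT) controls, most reads of 7 of them lay on the assembled chromosomes, and the other, Cuedc1, had 1 read in all. The genes are Fndc5, Zbtb8os, Tmem234 and Ptp4a2, which are annotated on chromosome 4, and Kif1c, Dynll2, Cuedc1 and Msi2, which are annotated on chromosome 11. They were chosen by their read counts on chromosome and scaffold copies in the AMPKα2 libraries, so their AMPKα2 values are given as a description without a test. The members are all alternative polyadenylation sites (APSs) that the deposited table assigns to these 8 genes, which gives 38 of the 56483 APSs and 8 of the 15349 gene symbols. Of the 38 APSs, 27 lay on assembled chromosomes and 11 on scaffolds, against 56343 and 140 in the whole table.

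Gastrocnemius muscle RNA was read with WTTS-seq (whole transcriptome termini site sequencing), a strand-specific method that reads the 3′ ends of polyadenylated transcripts. The 4 groups are AMPKα1 KO, AMPKα1 WT, AMPKα2 KO and AMPKα2 WT, with 2 adult male mice and 2 libraries each. Every mouse is labelled C57BL/6, whereas the methods of the study give 129S2/SvPas for the AMPKα1 KO mice and C57BL/6 for the AMPKα2 KO mice. The KO mice were about 6 weeks (AMPKα1) and 8 weeks (AMPKα2) old by these methods, and no WT ages are given. The KO mice are AMPKα1-/- and AMPKα2-/-, and each deletion removed part of the catalytic domain. Further details of the alleles are not reported here. No source names separate cultures, litters or days, and age, strain and targeted gene cannot be told apart between the models.

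AMP-activated protein kinase (AMPK) is the energy sensor of the cell, and its catalytic subunits α1 and α2 are encoded by Prkaa1 and Prkaa2. A reference assembly holds the assembled chromosomes of 1 inbred strain and, beside them, scaffolds that are unplaced or that give an alternate version of a region, in some cases from another strain. A gene can therefore be listed at a chromosome copy and at a scaffold copy, and a read mapped to its best match is counted at only one of them. In the deposited table, the copies carry the same symbol and separate identifiers, such as gene10239 for Fndc5 on chromosome 4 and gene47180 for Fndc5 on its scaffold. The strain of the scaffolds is not given in the sources used here, and the bases of the scaffold copies were not analysed here.

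Sequences are shown for the chromosome 3′ ends with at least 10 reads in each AMPKα2 WT library, all of which had fewer reads in AMPKα2 KO. The chromosome 3′ ends of Msi2 had fewer WT reads than this and are not shown. Each run holds the 30 bases that end at the APS on the strand of the gene, taken from GENCODE M21 transcripts on GRCm38, and capitals mark the polyadenylation signal AATAAA or ATTAAA where it occurs.
Fndc5, chr4:129143271-129143300, plus strand: gaggttgaactacaaacccaaattctgcaa
Zbtb8os, chr4:129347004-129347033, plus strand: atttaaagtgtggctttcagaaatggaaaa
Tmem234, chr4:129607852-129607881, plus strand: tacagagaaccctgtctcgaaaaaccaaaa
Ptp4a2 proximal, chr4:129848373-129848402, plus strand: aaaaaaaaaaaaaaacaaaaaaaaccaaca
Ptp4a2 distal, chr4:129849950-129849979, plus strand: tgaagaacAATAAAacatattttacatgct
Kif1c, chr11:70729023-70729052, plus strand: ccagagagtgtgctggaggctgagggaagg
Dynll2, chr11:87979525-87979554, minus strand: gacATTAAAggtcgattgatgcacttctga
These 7 windows lie in annotated 3′ UTRs. The signal began 21 bases before the distal Ptp4a2 site as AATAAA and 26 bases before the Dynll2 site as ATTAAA. The other 5 windows hold neither hexamer on the sense strand, the only strand searched. Over all 21207 APSs whose 30 bases lie in 1 annotated exon, 31.3% of the windows hold AATAAA and 10.4% hold ATTAAA, and a window can hold both. The proximal Ptp4a2 window holds 26 A among its 30 bases, against a median of 11, and 0.481% of all windows hold 22 or more.

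Read depth was 2311242 to 3549156 reads per library, and 3 reads, taken as the smallest count the depth can show, correspond to 0.782 to 1.71 CPM (reads scaled to the size of the library). CPM values were scaled by library totals and TMM factors within each model. They are not compared between models, except in the likeness of profiles below, which spans both models. Intervals and limits cover counting error only, since reads amplified by PCR and counted without molecular identifiers need not be separate molecules. The biological coefficient of variation over APSs was 156% for AMPKα1 and 38.8% for AMPKα2. The targeted genes were read too. Prkaa2 had 40 and 71 reads in AMPKα2 KO, against 87 and 62 in AMPKα2 WT. Prkaa1 had 0 and 82 reads in AMPKα1 KO, against 15 and 0 in AMPKα1 WT, so reads were present in the library labelled AMPKα1 KO 2 and absent from that labelled WT 2. Reads at 3′ ends outside a deleted catalytic domain do not check the deletion. All 5 skeletal muscle markers (Acta1, Ckm, Mylpf, Tnnt3 and Myh4) had reads in every group. They summed to 41687 to 43751 CPM in AMPKα2 KO and 35043 to 36014 in WT, and to 43127 to 53220 CPM in AMPKα1 KO and 68207 to 110970 in WT. Their part in the results was not tested. Adipocyte markers summed to 150 to 211 CPM in AMPKα2 KO and 190 to 475 CPM in AMPKα2 WT, and blood markers to 754 to 1021 and 599.6 to 888 CPM. Macrophage markers summed to 60.7 to 60.8 and 58.8 to 88.6 CPM and endothelial markers to 22.1 to 24.5 and 29.0 to 30.5 CPM, all markers of both lists having reads in both AMPKα2 groups. In AMPKα1 KO and WT, adipocyte markers summed to 519 to 2073 and 543 to 839 CPM and blood markers to 309.9 to 569.7 and 364 to 814 CPM. Macrophage markers summed there to 38.6 to 53.1 and 32.5 to 43.6 CPM, with Cd68 at 0 in KO, and endothelial markers to 103 to 148 and 152 to 197 CPM. In bulk tissue, fewer cells of a type and less RNA per cell cannot be told apart.

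Fndc5 encodes the membrane protein from which the exercise-linked hormone irisin is cleaved. Its chromosome site at 129143300, in the 3′ UTR 1293 bases before the annotated gene end, had 266 and 185 reads in AMPKα2 WT and 0 and 0 in AMPKα2 KO. Its scaffold site at 745904 had 1 and 1 reads in WT and 110 and 172 in KO. The KO and WT libraries did not overlap at either copy, and the exchange was complete within the depth of the libraries. The chromosome copy was at least 57.9-fold lower in KO, with the floor of 3 reads per library. The scaffold copy was 179-fold higher (95% counting interval 49.2 to 1489, with 2 reads in WT). In the AMPKα1 model, the chromosome site had 110 and 140 reads in KO, against 79 and 108 in WT, and the scaffold site had 0 or 1 read in each of the 4 libraries.

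Zbtb8os encodes archease, a cofactor of the tRNA ligase that joins tRNA exons. Its chromosome site at 129347033 had 14 and 14 reads in AMPKα2 WT and 0 and 0 in KO, and its scaffold site at 949272 had 0 and 0 in WT and 10 and 10 in KO. The exchange was as complete as that of Fndc5 at a lower depth. Against the floor, the chromosome copy was at least 3.73-fold lower and the scaffold copy at least 4.17-fold higher in KO. In the AMPKα1 libraries the scaffold site had 0 reads, beside 89 and 102 chromosome reads in KO, against 44 and 21 in WT.

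Tmem234 encodes a small transmembrane protein. Its chromosome site at 129607881 had 36 and 20 reads in AMPKα2 WT and 0 and 1 in KO, and its scaffold site at 1207248 had 0 and 0 in WT and 32 and 45 in KO. The chromosome copy was 44.0-fold lower in KO (counting interval 7.58 to 1769, with 1 KO read) and the scaffold copy at least 15.6-fold higher. AMPKα1 libraries had 5 to 9 chromosome reads and 0 or 1 scaffold read of Tmem234.

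Ptp4a2 encodes a phosphatase of the PRL family, whose members bind the CNNM magnesium transporters. It is the member with the most reads, and its switch was partial. Its distal chromosome site at 129849979, 24 bases before the annotated gene end, had 164 and 142 reads in AMPKα2 WT and 0 and 2 in KO. The scaffold counterpart at 1450662 had 14 and 8 reads in WT and 67 and 151 in KO. The distal site thus changed copy almost fully, from 7.87% and 5.33% of its reads on the scaffold in WT to 100% and 98.7% in KO. The proximal chromosome site at 129848402, 1601 bases before the gene end, had 503 and 305 reads in WT and kept 71 and 178 in KO. Its scaffold counterpart at 1449090 had 22 and 19 reads in WT and 44 and 115 in KO. The proximal site reached a scaffold share of 38.3% and 39.2% in KO, against 4.19% and 5.86% in WT. The 95% Wilson intervals of the KO libraries were 29.9 to 47.4% and 33.8 to 44.9% at the proximal site, and 94.6 to 100% and 95.4 to 99.6% at the distal site. They do not overlap between the sites. The proximal site is the one whose last 30 bases are the A-rich run printed above, and whether this run bears on the mapping was not tested.

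**Figure D1:**
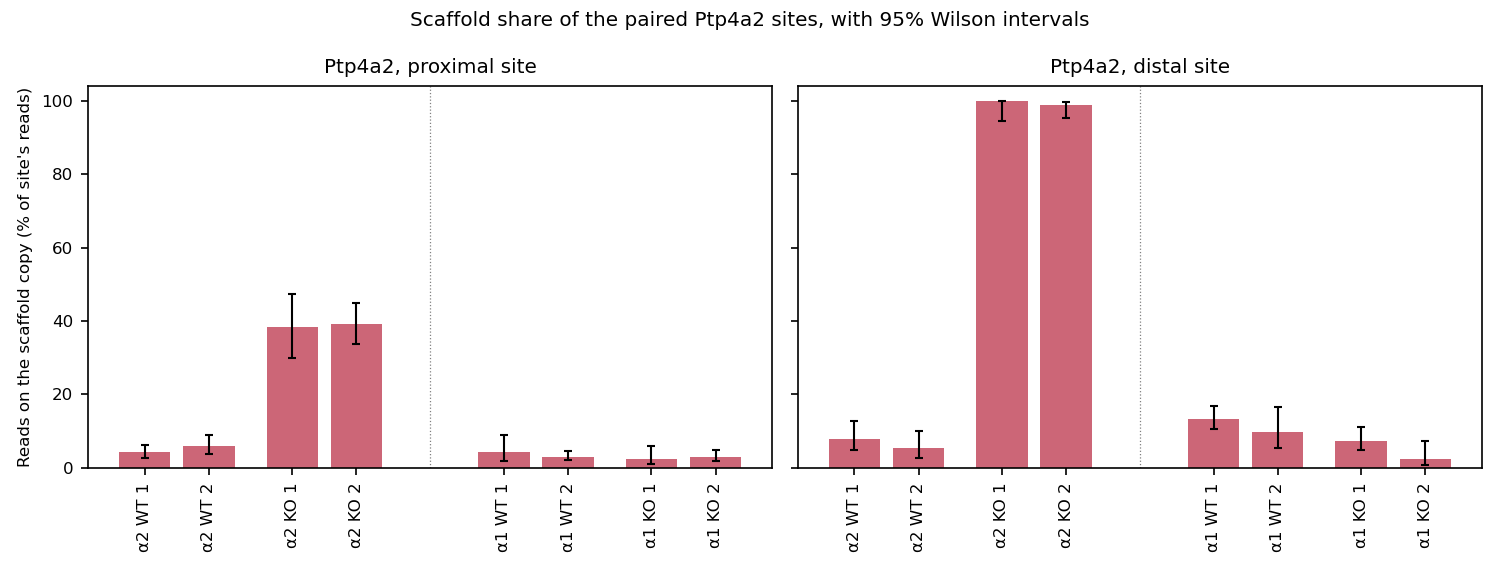
Scaffold share of reads (percent) at the proximal and distal 3′ ends of Ptp4a2 in each of the 8 libraries, with 95% Wilson intervals. In AMPKα2 KO the distal site stands at 98.7 to 100% and the proximal site at 38.3 to 39.2%, while the WT and AMPKα1 bars lie between 2.42 and 13.4%.

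With both copies of each site added, the distal site took 25.3% and 31.6% of the reads of the Ptp4a2 pair of sites in AMPKα2 WT and 36.8% and 34.3% in KO. In the AMPKα1 model this share was 62.2% and 19.9% in KO and 76.7% and 12.9% in WT. The AMPKα1 libraries numbered 1 were high and those numbered 2 were low in both genotypes, and the spread within each genotype (SD 29.9 and 45.1 percentage points, n = 2) exceeded the difference between the genotype means of 41.0% and 44.8%. The other 4 chromosome sites of Ptp4a2 lie in introns and had 0 to 5 reads in each AMPKα2 library.

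Kif1c encodes a motor of the kinesin-3 family that carries cargo along microtubules. Its chromosome 11 site at 70729052, in the 3′ UTR, had 103 and 35 reads in AMPKα2 WT and 1 and 0 in KO, and its scaffold site at 834444 had 3 and 0 in WT and 39 and 67 in KO. The scaffold site was 45.0-fold higher in KO (counting interval 15.0 to 222, with 3 reads in WT). In AMPKα1 KO, all chromosome reads of Kif1c lay at another 3′ end, while AMPKα1 WT had reads at several. The site at 70731974, 10 bases beyond the annotated gene end, had 45 and 93 reads in AMPKα1 KO and 14 and 34 in WT, whereas the site at 70729052 had 0 and 0 in KO, against 7 and 11 in WT. In the AMPKα2 libraries the site at 70731974 had 2 and 0 reads in WT and 0 in KO. An intronic site at 70720499 had 17 and 0 reads in AMPKα1 WT, 3 and 4 in AMPKα2 WT, and 0 in the KO libraries of both models. The gene-strand scaffold site had 0 reads in all 4 AMPKα1 libraries. A second scaffold site, at 817687, lies on the strand opposite to the gene and had 8 to 18 reads in the AMPKα1 libraries and 0 or 1 in the AMPKα2 libraries.

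Dynll2 encodes a light chain of cytoplasmic dynein that also serves myosin V. Its chromosome site at 87979525, which is the annotated gene end, had 24 and 18 reads in AMPKα2 WT and 0 and 0 in KO. Its 2 scaffold sites, at 1117235 and 1116585, had 0 and 1 reads in WT library 1 and none in WT library 2. In KO they had 11 and 2 reads in library 1 and 13 and 18 in library 2. The KO libraries split the scaffold reads differently between these sites. In the AMPKα1 libraries the chromosome site had 131 and 84 reads in KO, against 55 and 68 in WT, and the scaffold sites had 1 and 1 in KO, against 0 and 9 in WT.

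Cuedc1 encodes a protein with a ubiquitin-binding CUE domain. Its listed APS is the scaffold site at 1329040, with 1 and 0 reads in AMPKα2 WT and 100 and 256 in KO. The deposited table assigns no chromosome APS to Cuedc1, so no copy could be set against it. The scaffold site was 453-fold higher in KO (counting interval 80.8 to 17945, with 1 read in WT) and had 0 or 1 read in each AMPKα1 library. Msi2 encodes the RNA-binding protein Musashi 2 and had few reads in the AMPKα2 model. Its scaffold site at 1483786 had 1 and 2 reads in WT and 4 and 9 in KO, while its 14 chromosome sites together had 24 and 11 in WT and 2 and 7 in KO. Of these 14 sites, 2 lie in the 3′ UTR and 12 in introns. In the AMPKα1 libraries they had 132 to 494 reads together, and the scaffold site had 0 to 2.

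**Figure D2:**
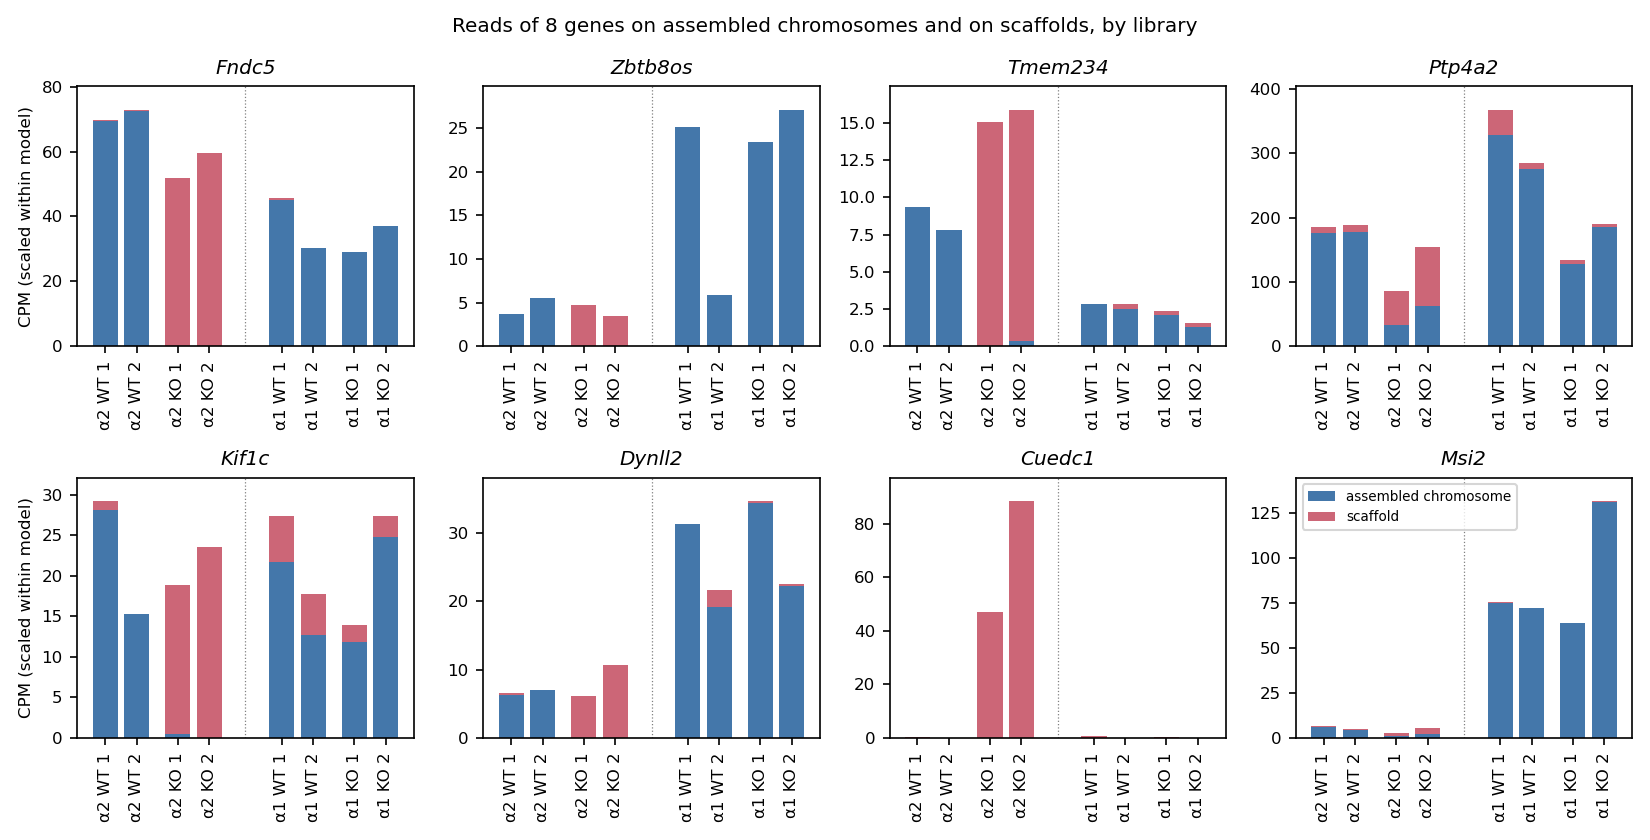
CPM of the 8 genes in each library, stacked as reads on assembled chromosomes (blue) and on scaffolds (red), with the AMPKα2 libraries left and the AMPKα1 libraries right of the dotted line. In AMPKα2 KO the bars of Fndc5, Zbtb8os, Dynll2 and Cuedc1 hold scaffold reads only, and those of the WT and AMPKα1 libraries are mostly chromosome reads except for Cuedc1.

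Over the 8 genes, 85.0% (95% Wilson interval 81.6 to 87.9) and 81.9% (79.5 to 84.1) of the reads lay on scaffolds in the AMPKα2 KO libraries. In AMPKα2 WT the share was 3.69% (2.76 to 4.92) and 3.89% (2.74 to 5.50). The AMPKα1 libraries stood near the AMPKα2 WT libraries, at 3.14% and 1.88% in KO and 8.11% and 4.07% in WT. The group means were 83.5% ± 2.16, 3.79% ± 0.141, 2.51% ± 0.889 and 6.09% ± 2.86 (SD, n = 2). Without Cuedc1, the AMPKα2 KO libraries stood at 81.2% and 76.1%. By gene, Fndc5, Zbtb8os and Dynll2 reached 100% in both KO libraries, Tmem234 100% and 97.8%, Kif1c 97.5% and 100%, Msi2 66.7% and 56.3%, and Ptp4a2 61.0% and 59.5%. The Msi2 values rest on 6 and 16 reads.

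**Figure D3:**
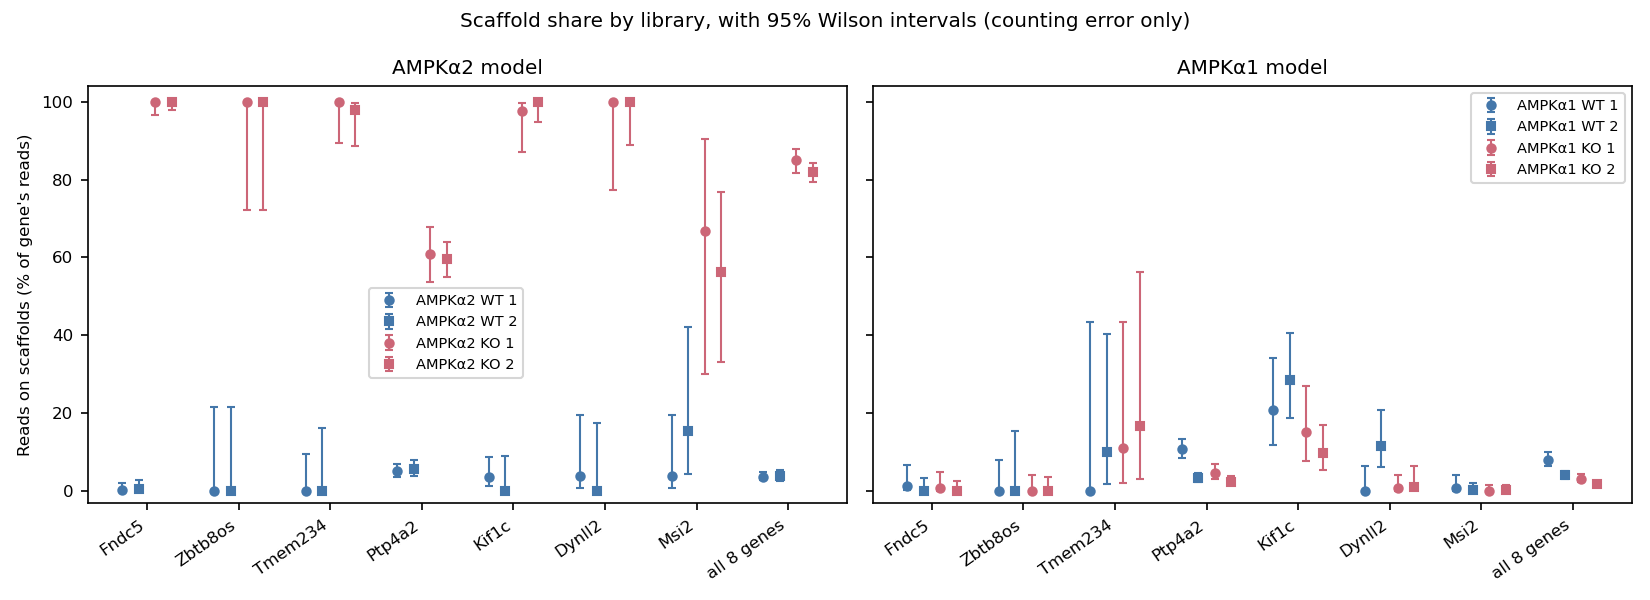
Share of reads on scaffolds (percent of the gene's reads) for the 7 genes listed on both kinds of sequence and for all 8 genes together, per library, with 95% Wilson intervals. The AMPKα2 KO points lie at 56.3 to 100%, and the AMPKα2 WT points at 0 to 15.4%.

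Scaffold reads of other genes overlapped between AMPKα2 KO and WT. Apart from the 8 genes, scaffold sites held 0.0206% and 0.0321% of all reads in AMPKα2 KO and 0.0347% and 0.0252% in WT. The 8 genes gave 44.3% and 50.8% of all scaffold reads in KO, and 3.45% and 4.44% in WT. Beside 7 of the 8 genes, 21 other gene symbols were listed on both kinds of sequence. Of these, 17 had at least 20 reads in the AMPKα2 libraries, and their share in KO minus WT ranged from -21.8 to 54.2 percentage points with a median of 0. The same difference was 51.2 to 100 points for the 7 members, with a median of 97.7 points. In 14 of the 17, the KO and WT libraries overlapped. Erbb4 was above WT in both KO libraries, with 52.9% of 34 reads in KO and 30.1% of 73 reads in WT. Spata5 was below WT, at 66.8% of 262 reads and 77.4% of 248 reads. Ndrg2 was below WT too, at 0.0591% of 1692 reads and 0.238% of 2526 reads. Rpsa-ps12 had the largest difference among the 17, but its libraries overlapped, at 75.6% of 41 reads in KO and 21.4% of 28 in WT. Of the genes with at least 50 reads on each kind over the 8 libraries, Akap1, Casz1, H6pd, Myl1 and Mettl17 overlapped between KO and WT. Their differences were 20.3, -2.83, 3.35, -0.0198 and 0 points. The value for Akap1 rests on 11 reads in KO and 13 in WT. Mettl17 had 6 and 22 AMPKα2 reads, with 0 on the scaffold in either group. The members were chosen for this measure, so the contrast with the other genes is a description.

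With chromosome and scaffold reads added, 7 of the 8 genes had log2 fold changes between -0.57 and 0.93 in AMPKα2. Fndc5 had 51.8 and 59.4 CPM in KO and 69.6 and 72.9 CPM in WT, a log2 fold change of -0.27 (SE 0.24). Tmem234 had 15.1 and 15.9 CPM in KO and 9.38 and 7.84 CPM in WT, with 0.93 (SE 0.34). Ptp4a2 had 85.6 and 154 CPM in KO and 186 and 188 CPM in WT, with -0.57 (SE 0.27). These 3 genes and Cuedc1 are the 4 of 8 whose libraries did not overlap between KO and WT, against 38.8% of all 10536 genes fitted. The log2 fold change was -0.06 (SE 0.53) for Zbtb8os, 0.01 (SE 0.33) for Kif1c, 0.41 (SE 0.41) for Dynll2 and -0.38 (SE 0.48) for Msi2. Cuedc1 was the exception, at 8.48 (SE 0.59), with no chromosome reads to add. The median of the 8 log2 fold changes was -0.03, beside -0.01 over all genes fitted. Read site by site instead, all 17 member APSs with at least 16 reads in the AMPKα2 libraries had KO and WT libraries that did not overlap, against 38.7% of all 23218 APSs. The choice of the members fixes that count.

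**Figure D4:**
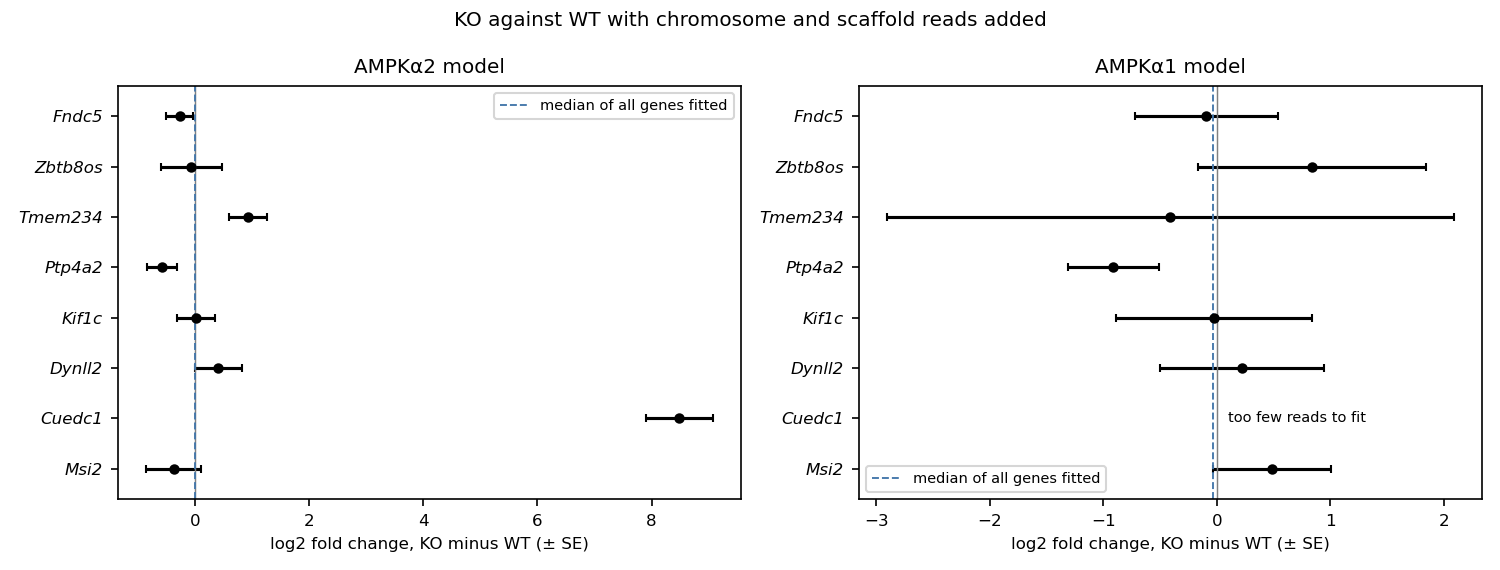
Log2 fold change, KO minus WT, of the 8 genes with chromosome and scaffold reads added, from the edgeR fit over all genes, as points with SE bars. In AMPKα2, 7 genes lie between -0.57 and 0.93 and Cuedc1 at 8.48; in AMPKα1, the 7 genes that could be fitted lie between -0.91 and 0.84.

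The AMPKα1 model was not used to choose the genes, and it was tested. The spread between its libraries was wide, and the APS test recovered almost none of the changes put into simulated AMPKα1 counts, so a count of 0 does not show that the members did not differ. None of the 30 member APSs with at least 16 reads passed an adjusted p of 0.1 in edgeR's quasi-likelihood test, against 0.00454% of all 44024 APSs. An unadjusted p under 0.05 was reached by 0 of the 30 with edgeR, against 3.07% of all APSs. With DESeq2 it was reached by 1 of 35, against 5.45% of all APSs. DESeq2 also called 0 of them, against 1.37% of the APSs to which it gave an adjusted p. With both copies added, 0 of the 7 genes tested passed, against 0.0% of all 13924 genes. An unadjusted p under 0.05 was reached by 0 with edgeR or DESeq2, against 4.23% and 6.79% of all genes. Ptp4a2 had the lowest p of the 7, with 134 and 190 CPM in KO and 368 and 285 CPM in WT. Its log2 fold change was -0.91 (SE 0.40, edgeR adjusted p = 0.763), lower in both KO libraries. Ptp4a2 and Tmem234 were the 2 of 7 genes whose AMPKα1 libraries did not overlap, against 33.0% of all genes. For the other genes, log2 fold changes ran from -0.41 (SE 2.50) for Tmem234 to 0.84 (SE 1.00) for Zbtb8os. In a fit over all 8 libraries, 2 of the 30 member APSs passed, against 3.55% of all APSs. These were the Kif1c site at 70729052, with a log2 fold change of -5.77 (SE 1.38, edgeR adjusted p = 0.00368), and the scaffold site of Ptp4a2 at 1450662, with -2.63 (SE 0.77, edgeR adjusted p = 0.0323). This fit shares its estimate of the spread with the AMPKα2 libraries, whose spread was smaller.

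The 11 scaffold sites lay on 3 of the 50 scaffolds in the table. One scaffold carries Fndc5, Zbtb8os, Tmem234 and Ptp4a2 in the order of chromosome 4. The 5 sites that could be paired between the copies spanned 704758 bases on the scaffold and 706679 bases on chromosome 4, and their offsets differed by up to 3237 bases. The Ptp4a2 sites lay 1572 bases apart on the scaffold and 1577 on the chromosome. Its 5 member APSs held 263 and 493 reads in AMPKα2 KO, and its only other site, assigned to no gene, held 1 and 5. A second scaffold carries Dynll2, Cuedc1 and Msi2, again in the order of the chromosome, and the third carries Kif1c alone.

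The scaffold of Dynll2, Cuedc1 and Msi2 also holds 7 sites of no member, and 1 of them had scaffold reads almost only in AMPKα2 KO. Mrps23, which encodes a protein of the small mitochondrial ribosomal subunit, had 0 and 1 reads in AMPKα2 WT, 32 and 54 in KO and 0 in the 4 AMPKα1 libraries at position 1347910. Srsf1, which encodes a splicing factor, had 14 and 8 reads in WT and 6 and 10 in KO. The RNA gene Rnu3b1 had 23 and 16 in AMPKα2 WT, 11 and 7 in KO and 0 in the AMPKα1 libraries. The 2 sites of Akap1, an anchor of protein kinase A on mitochondria, had 0 to 5 reads in each AMPKα2 library and 0 to 41 in each AMPKα1 library. Srsf1 lies between Dynll2 and Cuedc1 on this scaffold. Neither Srsf1 nor Mrps23 is among the symbols listed on both kinds of sequence, so there are no chromosome reads of theirs to compare.

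Prkaa2, the gene targeted in the AMPKα2 KO mice, lies on chromosome 4 at 105029874 to 105109890 (GRCm38, minus strand). Fndc5, Zbtb8os, Tmem234 and Ptp4a2 begin 24.03, 24.23, 24.49 and 24.70 Mb beyond it, within 0.713 Mb of each other. The other 4 genes lie on chromosome 11, so the switch was found on both the targeted chromosome and another one. On chromosome 4, 487 sites had at least 50 reads in the AMPKα2 libraries. For the 483 sites of other genes, KO mice gave a median of 50.1% of the CPM summed over KO and WT means, with 5% of the sites below 33.8% and 5% above 69.5%. The chromosome sites of Fndc5, Tmem234 and distal Ptp4a2 stood at 0, 1.97 and 0.697%, and that of proximal Ptp4a2 at 27.5%. In 5-Mb bins of distance from Prkaa2, the median of the other sites stayed between 40.7 and 66.8%. The highest value came from the bin of 5 to 10 Mb, which holds 1 site, and the lowest from that of 40 to 45 Mb, which holds 7. In the bin that holds the 4 members, the median of the other sites was 50.7%, and among 0 to 5 Mb from Prkaa2 it was 51.7%.

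**Figure D5:**
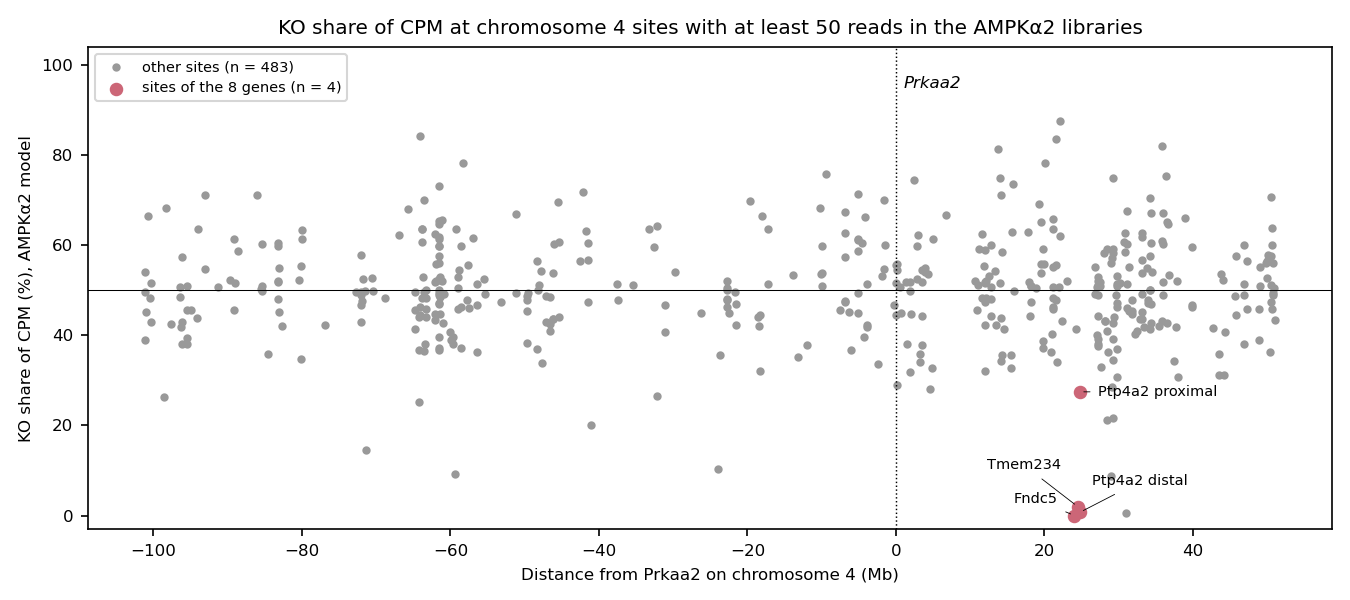
KO share of CPM (percent, AMPKα2 model) at each chromosome 4 site with at least 50 reads against its distance from Prkaa2 in Mb, with sites of the 8 genes in red and the 483 other sites in grey. The red points gather near 24 to 25 Mb at 0 to 27.5%, below most grey points, whose median is 50.1%.

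A KO share under 5% was found at 37 of 9728 chromosome sites with at least 50 AMPKα2 reads, or 0.380%, and 4 of them were member sites. On chromosome 4 there were 4 such sites. The only one outside the members was that of Rpl11, a ribosomal protein gene 30.9 Mb from Prkaa2, with 134 and 75 reads in WT and 0 and 1 in KO, and 82 to 373 reads in the AMPKα1 libraries. Sites between the members had fewer reads in KO too, without a scaffold counterpart in the table. From the start of Fndc5 to the end of Ptp4a2, 24 sites of other genes or of no gene together had 7.53 and 10.02 CPM in AMPKα2 KO (45 reads) and 15.6 and 17.6 CPM in WT (105 reads). Of these sites, 15 had no KO reads, including 6 with no AMPKα2 reads at all. Rbbp4, a histone-binding protein gene, had 9 and 16 reads in KO, against 36 and 20 in WT over 7 sites, which was lower in CPM in both KO libraries. In CPM the libraries overlapped for Sync, the gene of the muscle intermediate filament protein syncoilin, with 3 and 10 reads in KO, against 11 and 14 in WT. Each of the other named genes there had at most 9 AMPKα2 reads, and none of these 12 genes is listed on the scaffold.

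Genes flanking the members kept chromosome reads in most cases. Epb41, 2.07 Mb beyond the chromosome 4 members, had 48 and 85 reads in AMPKα2 KO and 88 and 70 in WT. Dlgap3, 1.97 Mb before them, had 2 and 115 in KO, against 1 and 14 in WT, with a spread within KO larger than the difference. On chromosome 11, Tmem256 and Gm33351 lie 0.861 Mb before and 0.843 Mb beyond Kif1c. In CPM, both KO libraries lay below both WT libraries for Tmem256 and Nme2. Tmem256 had 127 and 123 reads in KO, against 324 and 222 in WT, and Gm33351 had 63 and 11 in KO, against 43 and 22 in WT. Nme2, 5.23 Mb beyond Msi2, had 246 and 327 reads in KO, against 561 and 407 in WT. Mir142, the host locus of a microRNA of blood cells, lies 0.222 Mb before Dynll2 and had 0 and 0 reads in KO, against 83 and 26 in WT, with no scaffold APS listed. Reads of 0 in both KO libraries beside at least 10 in each WT library were found at 13 of 9634 chromosome and scaffold sites, of which 3 were member sites (Fndc5, Zbtb8os and Dynll2). The opposite pattern was found at 5 of 8349 sites, of which 3 were member scaffold sites (Dynll2, Zbtb8os and Tmem234).

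The profiles most like the added scaffold reads of the 8 genes over the 8 libraries were those of Gm33135 and Mrps23, among 14622 genes and unassigned APSs with at least 50 reads. Likeness is the root mean square difference between centred log2(CPM + 1) profiles, and it was 0.69 for Gm33135 and 0.73 for Mrps23. Gm33135, annotated on chromosome X, had 30 and 54 reads in AMPKα2 KO and 0 in each of the other 6 libraries. The next 3 differed by 0.96 or more, and were 2 APSs assigned to no gene and Gm10036. Vrk3 was most like the added chromosome reads, at 0.40, with 6 and 16 reads in AMPKα2 KO, 55 and 35 in WT and 53 to 125 in the AMPKα1 libraries. Gm13889, Spi1, Zmym4 and Gm41414 followed at 0.47 to 0.55. These are descriptions over libraries that share their depth and their genotype. The profiles span both models, whose CPM were scaled separately, so the ranks also depend on differences between the models.

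A list of 34 relatives was tested in both models. It holds paralogues and partners of the members, regulators of Fndc5, and genes of other proteins released by muscle. Mstn and Sparc, named below, belong to this last part and are neither paralogues nor partners of a member. In AMPKα2, 0 of the 23 tested passed an adjusted p of 0.1 in edgeR's test, against 0.484% of all 10536 genes. An unadjusted p under 0.05 was reached by 2 of them. DESeq2 called 0, against 1.27% of the genes to which it gave an adjusted p. It gave 2 of 27 under 0.05, against 2.8% of all genes. The edgeR share of 2 in 23 stood near the 8.44% of all genes with an unadjusted p under 0.05. Ppargc1a, which encodes the coactivator PGC-1α upstream of Fndc5, had 89 and 93 reads in KO, against 86 and 54 in WT, a log2 fold change of 0.87 (SE 0.30, edgeR adjusted p = 0.418). Mstn, the gene of the muscle growth inhibitor myostatin, had 73 and 176 reads in KO, against 106 and 58 in WT, with 0.99 (SE 0.29, edgeR adjusted p = 0.308). Without the filter on low counts Mstn passed (edgeR adjusted p = 0.0544), against 2.58% of all genes. Ptp4a3, the paralogue of Ptp4a2 with the most reads, had 188 and 236 reads in KO, against 370 and 205 in WT, with 0.05 (SE 0.25). Dynll1, the paralogue of Dynll2, had 16 and 28 in KO, against 28 and 10 in WT, with 0.68 (SE 0.43).

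In AMPKα1, 0 of the 28 relatives tested passed in edgeR's test, against 0.0% of all genes. An unadjusted p under 0.05 was reached by 3 of them, against 4.23% of all genes. DESeq2 gave 5 under 0.05, against 6.79% of all genes. It called 1, against 1.14% of the genes to which it gave an adjusted p. This was Sparc, the gene of a matrix protein released by muscle and connective tissue. Sparc had 1800 and 2511 reads in AMPKα1 KO and 3528 and 6467 in WT, a log2 fold change of -1.66 (SE 0.35, edgeR adjusted p = 0.763) and a DESeq2 adjusted p of 0.0123. Cnnm4, a magnesium transporter gene, had 0 and 0 reads in KO, against 21 and 24 in WT. Fndc4, a paralogue of Fndc5, had 0 and 0 in KO, against 12 and 57 in WT. The opposite pattern was seen for Cnnm2, with 18 and 33 reads in KO and 0 in WT, and for Msi1, the paralogue of Msi2, with 22 and 37 in KO and 0 in WT. None of these 4 genes passed. The tRNA ligase Rtcb, the partner of archease, had log2 fold changes of 0.87 (SE 1.29) in AMPKα1 and -1.01 (SE 0.48) in AMPKα2, neither of which passed. An interaction term over all 8 libraries compared the change in AMPKα1 with that in AMPKα2. Among the relatives, its lowest adjusted p was that of Sparc (edgeR adjusted p = 0.351).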

How the data were processed

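WTTS-seq libraries of 8 gastrocnemius muscles were analysed. The deposited values are raw read counts per APS, without normalization, made by the authors: reads were filtered with the FASTX Toolkit, leading Ts were trimmed, reads were mapped with TMAP to the mouse genome (GRCm38.p5 in the processing notes) and read ends were clustered into APSs. The lowest sum over the 8 libraries in the table is 16 reads. How reads matching a chromosome and a scaffold were placed is not given in the sources used here. Counts sum to 2311242 to 3549156 per library.

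Members are all APSs with 1 of 8 gene symbols, and members and gene lists were chosen with earlier results of these data known. Each model was fitted separately with edgeR 4.0.16, KO against WT (robust quasi-likelihood fit, TMM, at least 16 reads over 4 libraries, Benjamini-Hochberg adjusted p under 0.1 over all APSs or genes) in R 4.3.3. DESeq2 1.42.0 was an alternative. The fit was tested on simulated counts with known changes, few of which it recovered at the APS level in AMPKα1. Shares carry 95% Wilson intervals from scipy 1.17.1 and folds carry counting intervals. With 2 mice against 2, an exact two-sided permutation test cannot go below p = 0.333. The edgeR and DESeq2 p-values set the difference between KO and WT against a spread between these mice. That spread is estimated in part from all APSs or genes. Sites with at least 50 reads over the 8 libraries were to be named by position. Those of Msi2 on chromosome 11 and an intronic site of Ptp4a2 are instead given as sums or ranges. Other named genes follow fixed rules. These are genes with at least 50 reads on both kinds of sequence, and flanking genes with at least 100 AMPKα2 reads and no scaffold APS. The 5 nearest profiles and relatives that pass are named by rule too. Rpsa-ps12, Mrps23, Srsf1, Rnu3b1, Rpl11, Rbbp4, Sync and the relatives given with values were named after their values were seen. A scaffold site was paired with a chromosome site where a gene has 1 of each, or where offsets agree within 100 bases. GENCODE M21 gave locations on GRCm38; 2 member sites end exactly at GENCODE gene ends.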

Additional observations from a re-analysis of the deposited data

Results flagged for a closer look

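For 3 values, both KO libraries lay on one side of both WT libraries in AMPKα1 and on the other side in AMPKα2. The difference between the models was not tested for the shares. The scaffold share of all reads of the 8 genes was lower in AMPKα1 KO than in WT by 3.58 percentage points (KO mean minus WT mean -3.58) and higher in AMPKα2 KO by 79.7 points. For Kif1c, the scaffold share differed by -12.3 points in AMPKα1 and 97.0 points in AMPKα2. All AMPKα1 scaffold reads of Kif1c came from the site on the opposite strand. With both copies added, Tmem234 differed by -0.852 CPM in AMPKα1, where each library had 5 to 10 reads of the gene, and by 6.86 CPM in AMPKα2. For Tmem234 the interaction term over all 8 libraries did not pass (edgeR adjusted p = 0.820). The AMPKα2 differences come from the contrast on which the genes were chosen, and each comparison rests on 2 mice a group.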

How the results depend on the processing

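Over 74 values recomputed under other settings, 65 stayed on their side of the threshold or within the spread between replicates. These include the scaffold shares with 1 library left out, which lie within that spread by construction and say nothing about stability. Among the 65, the median log2 fold change of the 8 genes in AMPKα2 changed sign under some settings. It was -0.03 in the main fit, -0.01 with DESeq2 and 0.02 with all 8 libraries in one fit. In AMPKα1, the number of member APSs called was 0 under every alternative except the fit over all 8 libraries, which called 2 and, in all, 1564 APSs, and was 0 to 0 with 1 library left out. Member genes with copies added stayed at 0 throughout. Relatives called in AMPKα1 were 1 with DESeq2, which called 115 genes in all, and relatives called in AMPKα2 were 1 without the filter on low counts (Mstn, edgeR adjusted p = 0.0544, in a fit that called 376 genes against 51). With library totals only, the median log2 fold change of the 8 genes in AMPKα2 moved from -0.03 to -0.23, as the median of all genes moved to -0.19. With 1 library left out it lay between -0.03 and 0.06. The scaffold share over the 8 genes in AMPKα2 KO was 100% as the median per gene and 78.6% without Cuedc1, an alternative chosen after seeing the data. The share in AMPKα2 WT was 3.59% from sites with at least 50 reads and 1.89% as the median per gene, and that in AMPKα1 WT was 2.18% as the median per gene. With 1 library left out, the share was 81.9 to 85.0% in AMPKα2 KO, 3.69 to 3.89% in AMPKα2 WT, 1.88 to 3.14% in AMPKα1 KO and 4.07 to 8.11% in AMPKα1 WT. Same-numbered KO and WT libraries are different mice, and their deviations from the group means correlated at 0.0429 in AMPKα1 and 0.136 in AMPKα2, so the numbers were not used as a pairing. With the replicate number as a block, 0 member APSs, 0 member genes and 0 relatives were called in AMPKα1, 0 relatives in AMPKα2, and the median log2 fold change of the 8 genes in AMPKα2 was 0.01.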

Other observations

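Outside the 8 genes, 10 chromosome sites had 0 reads in both AMPKα2 KO libraries and at least 10 in each WT library. Of these, 4 lay within 1.28 Mb of chromosome 17 and were noticed after their values were seen. They belong to Gtf2h4, a subunit gene of transcription factor TFIIH (36 and 28 reads in WT), Abcf1, a translation factor of the ABC family (18 and 17), Gnl1, a GTP-binding protein gene (15 and 11), and Ppp1r11, which encodes an inhibitor of protein phosphatase 1 (29 and 40). The remaining 6 lay on 6 other chromosomes. They include S100a8, a calcium-binding protein gene of neutrophils, with 21 and 14 reads in WT, and Cbx7, a Polycomb gene, with 16 and 13.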
